A study of Danio rerio with 20 samples.

Results

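Synchronized and non-synchronized neurons of the zebrafish dorsal pallium were compared among cells rich in glutamate transporter transcripts only. By the rule below both groups were thus of the same transmitter class, although the levels of these transcripts still differed between the groups. All cells came from the brains of Tg(HuC:H2B-GCaMP6f) fish at 4 to 5 weeks of age, in which the HuC promoter drives a calcium indicator in the nuclei of neurons, and all had been treated with the conspecific alarm substance (CAS), a skin signal of danger. Under two-photon imaging, neurons whose calcium signal oscillated together with that of their neighbours (synchronized) and neurons whose signal did not (non-synchronized) were drawn into glass pipettes, and RNA sequencing gave 10 libraries of each kind. No untreated fish entered the comparison, so it sets apart cells of CAS-treated fish and not CAS against control. Each library was taken as 1 cell.

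Members were chosen by 6 transcripts. Counts were divided by the total of the library to give CPM (counts scaled to a library of 1e+06), and a cell was kept as glutamate-rich when the sum of slc17a7a, slc17a6a and slc17a6b, which encode vesicular glutamate transporters, was above the sum of gad1b, gad2 and slc32a1, which encode the enzymes of GABA synthesis and the vesicular GABA transporter. This kept 14 of the 20 cells, 9 synchronized (4, 5, 6, 9, 14-1, 16, 20, 21 and 22 by their label numbers) and 5 non-synchronized (10, 15, 17, 10-1 and 19-1). Synchronized cell 4-1 and the other 5 non-synchronized cells were GABA-rich by the same rule. Values of the non-synchronized glutamate-rich cells are given in the order 10, 15, 17, 10-1 and 19-1 throughout, and those of the 9 synchronized cells by their lowest, median and highest value.

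In the vertebrate pallium, glutamate neurons send excitatory signals within the pallium and to other regions, and they are recognised by a vesicular glutamate transporter that fills synaptic vesicles. Serotonin (5-HT) from raphe axons acts on them through several receptors. The 5-HT7 receptor couples to the stimulatory G protein and raises cAMP. Small-conductance calcium-activated potassium (SK) channels and the release of calcium from internal stores are known to shape burst firing and slow oscillations in neurons, and the study asked which genes set synchronized neurons apart.

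The transporter transcripts were present in every one of the 14 cells but at unequal levels. The transporter sum was 165 to 734 CPM (median 547) in the 9 synchronized cells, against 67.4, 695, 88.4, 312 and 273 CPM in the 5 non-synchronized cells. The GABA gene sum was at most 13 CPM in the synchronized cells and 59.2 CPM in non-synchronized cell 17, whose transporter sum of 88.4 CPM made it the cell closest to the limit on its inner side. On the outer side stood synchronized cell 4-1, with a transporter sum of 233 CPM and a GABA gene sum of 683 CPM, and non-synchronized cell 13, with 325 and 750 CPM. slc17a6a was detected in all 14 cells. slc17a7a was 0 to 215 CPM (median 21.1) in synchronized cells and was detected in 8 of 9, against 0, 0, 0, 60 and 0 CPM in non-synchronized cells, where cell 10-1 alone held it. Because these transcripts chose the cells, their levels are a description only.

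**Figure D1:**
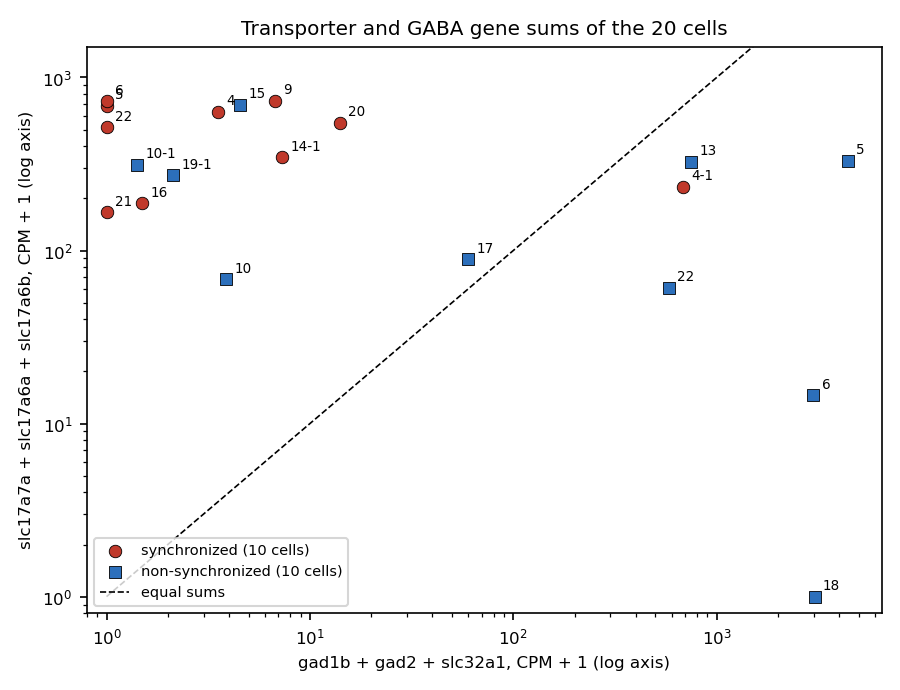
Sum of the vesicular glutamate transporter transcripts (vertical) against the sum of the GABA transcripts (horizontal) in each of the 20 cells, both as CPM + 1 on log axes, with circles for synchronized and squares for non-synchronized cells and a dashed line where the sums are equal. The 9 synchronized and 5 non-synchronized cells above the line were compared, and non-synchronized cell 17 lies closest to it from above.

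The libraries held 795838 to 2322879 counts in the 9 synchronized cells, with 6878 to 10878 genes detected, and 1131532 to 3144155 counts in the 5 non-synchronized cells, with 5588 to 9194 genes detected. Cell 15 had the fewest genes of all, and 47.4% of the genes measured here were at 0 in it, against 18.5% to 25.8% in the other non-synchronized cells. Mitochondrial transcripts took 14% of the counts in synchronized cell 4 and 13.7% in non-synchronized cell 17, and at most 8.21% in the other cells. Of 26 microglia and leukocyte genes found in the table, 14 were detected in synchronized and 16 in non-synchronized cells, with a summed level of 8.37 to 383 CPM in synchronized cells and 67.9 to 1845 CPM in non-synchronized cells, the highest in cell 19-1. Of 19 red blood cell genes, 15 were detected in synchronized and 5 in non-synchronized cells, with a summed level of 192 to 11613 CPM and 426 to 867 CPM in these groups, the highest in synchronized cell 5. Of the microglia and leukocyte genes, mpeg1.1 and c1qc were at 0 in all 14 cells, while csf1rb, ctss2.2 and fcer1g were at 21.4, 49.9 and 43.2 CPM in cell 19-1. The erythroid factor gata1a was at 0 in all 14 cells. The part of this RNA in the differences below was not tested beyond leaving cells out. Fewer transcripts in a cell and less of a cell drawn into the pipette cannot be told apart.

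The fish from which each cell came is not named, so each group counted as 1 sample and no test was made. The SD is a spread between cells. A gene was called measured with a mean of at least 10 CPM over the 14 cells, which 8913 genes reached. The difference of a gene is its mean log2(CPM + 10) in synchronized cells minus that in non-synchronized cells, a scale on which the change of low genes is understated, and a difference of 1 is close to 2-fold for a gene far above 10 CPM. Over all measured genes the median of this difference was 0.19. A gene was counted as higher with a difference of at least 1, as lower with -1 or less, and as held when it stayed past that size with any 1 of the 14 cells left out.

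By this measure 1337 of the 8913 genes (15%) were higher and 784 (8.8%) were lower in synchronized cells, and 625 (7.01%) and 252 (2.83%) of the measured genes were held in these directions. Every synchronized cell lay above every non-synchronized cell for 12 genes (0.135%) and below for 3 genes (0.0337%), counts that came to 16 to 38 (38 without cell 10-1) and 3 to 22 (22 without cell 15) with any 1 cell left out. The size limit alone says little of a new cell. When genes were called on the other 13 cells and read in the cell left out, the left-out synchronized cells lay on the synchronized side of the midpoint between the group means for 34.2% to 61.3% of the genes called higher, and the left-out non-synchronized cells did so for 34.7% to 57.1% of them. For genes called lower, these shares were 52.5% to 73.0% and 58.9% to 80.2%. The ranges overlapped in both directions. For genes called higher, the mean share was 53.7% for left-out synchronized and 46.8% for left-out non-synchronized cells. For genes called lower it was 62.2% and 65.7%, so these calls did not carry over to a left-out non-synchronized cell. The counts over gene lists below use the same size limit and share this weakness. Most single genes named below were picked by the size of their difference in these same cells, so the weakness applies to them as well.

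The 12 genes that stood above without overlap included the calcium release channel ryr1b. The largest difference was that of usp2a, a ubiquitin-specific protease that in mammals acts on clock proteins, with 160.0 to 1329 CPM (median 203) in synchronized cells against 119, 0.884, 2.37, 8.69 and 1.5 CPM in non-synchronized cells and a difference of 3.84. Only non-synchronized cell 10 came near the synchronized cells, whose highest value was that of cell 21. sec22ba, a SNARE protein of traffic between endoplasmic reticulum and Golgi, had 35.3 to 399 CPM (median 107) in synchronized cells, and of the non-synchronized cells only 19-1 held any, at 0.376 CPM, for a difference of 3.69. Non-synchronized cells thus lacked sec22ba almost entirely among the glutamate-rich cells, but it was present in all 5 GABA-rich non-synchronized cells at 3.86 to 358 CPM. ext1b, a heparan sulfate polymerase, had 43.1 to 225 CPM (median 108) in synchronized cells against 8.27, 27.4, 0, 0 and 28.5 CPM in non-synchronized cells, a difference of 2.56. ryr1b, a ryanodine receptor that releases calcium from the endoplasmic reticulum, was 120.2 to 427 CPM (median 238) in synchronized cells and 2.23, 41.5, 60, 36 and 36.4 CPM in non-synchronized cells, a difference of 2.54. The lowest synchronized cell, at 120.2 CPM, stood above the highest non-synchronized cell, cell 17 at 60.0 CPM.

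The other genes of this set were low or absent in the non-synchronized cells, with the exception of cyfip2. cyfip2, a member of the WAVE complex that directs actin growth and an interactor of the fragile X protein, was 178 to 907 CPM (median 271) in synchronized cells against 149, 2.65, 53.7, 155 and 141 CPM in non-synchronized cells, a difference of 2.01. Its lowest synchronized cell, 21 at 178 CPM, was close to its highest non-synchronized cell, 10-1 at 155 CPM. src, which encodes a tyrosine kinase, was 2.36 to 85.5 CPM (median 37.6) in synchronized cells and at most 0.636 CPM in non-synchronized cells, a difference of 2.01. mybbp1a, a nucleolar protein, was 1.72 to 265 CPM (median 43.7) in synchronized cells and was detected in non-synchronized cell 19-1 alone, at 0.751 CPM (difference 2.37). ttbk2b, a tau and tubulin kinase, was 2.51 to 163 CPM (median 28.4) in synchronized cells and was likewise detected in 1 of 5 non-synchronized cells, at 0.376 CPM (difference 1.96). The remaining genes were acbd5a, which tethers peroxisomes to the endoplasmic reticulum (1.73), cntn2, a contactin of axons (1.69), kcng1, a modulatory potassium channel subunit (1.6), and pcdh1g2, a clustered protocadherin whose reads cannot be told apart with certainty from those of related copies (1.5). For 7 of the 12 genes (src, mybbp1a, ttbk2b, acbd5a, cntn2, kcng1 and pcdh1g2) the separation rested on few reads, with 0.786 to 3.08 CPM in the lowest synchronized cell against 0.376 to 2.37 CPM in the highest non-synchronized cell. In pcdh1g2 each of these values was 1 read.

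The 3 genes that stood below without overlap were ier5l, nono and myl12.1. ier5l, an immediate early response gene, was 0 to 34.6 CPM (median 0) in synchronized cells, with 6 of 9 cells at 0, against 69, 58.3, 152, 51.7 and 38.7 CPM in non-synchronized cells, a difference of -2.56. nono, an RNA-binding protein of nuclear paraspeckles, was 4.56 to 95.9 CPM (median 29.2) in synchronized cells against 162, 285, 104, 172 and 110.4 CPM in non-synchronized cells, a difference of -1.90. myl12.1, a myosin regulatory light chain with a near-identical copy in the genome, was 7.07 to 385 CPM (median 245) in synchronized cells against 613, 386, 529.6, 931 and 624 CPM in non-synchronized cells, a difference of -1.72. Its groups touched, with 385 CPM in synchronized cell 22 and 386 CPM in non-synchronized cell 15.

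**Figure D2:**
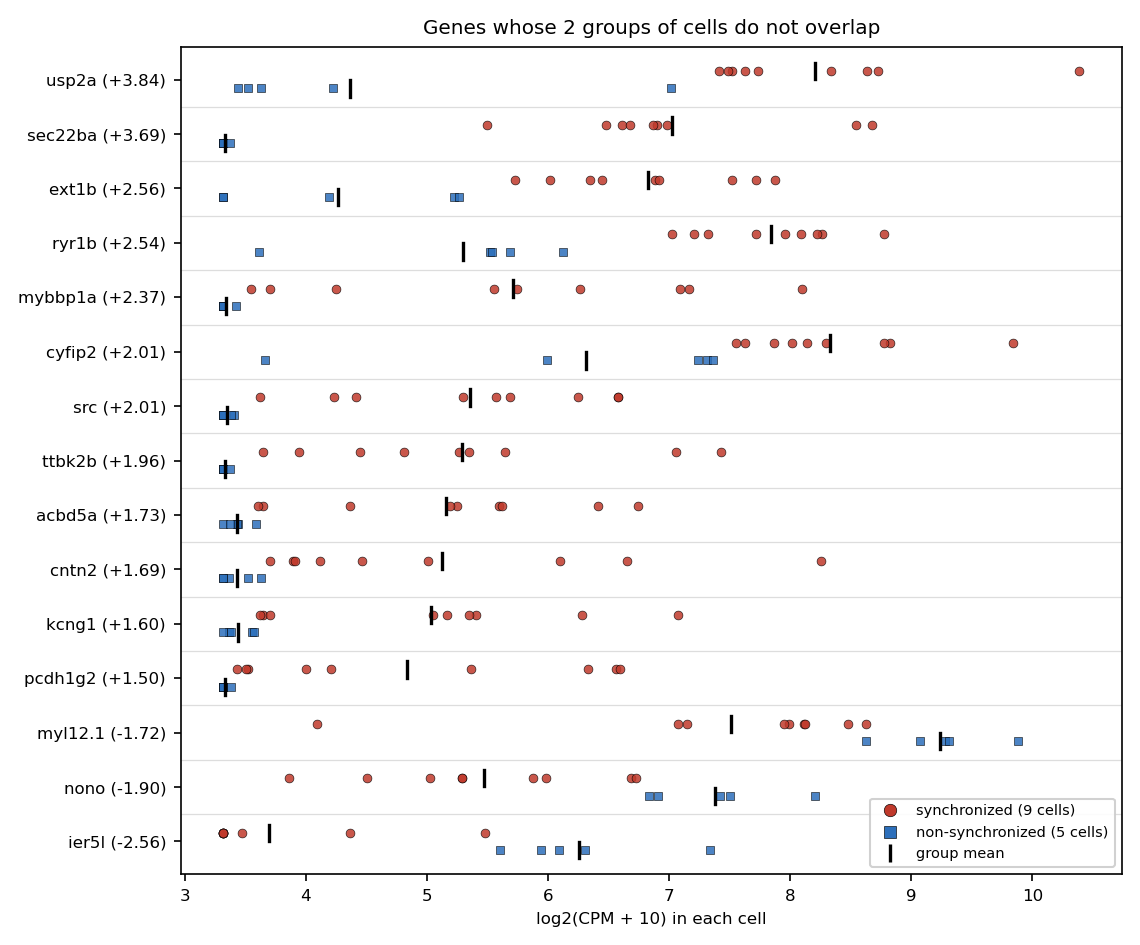
Levels of the 15 genes without overlap, as log2(CPM + 10) in each glutamate-rich cell, with circles for the 9 synchronized cells, squares for the 5 non-synchronized cells, vertical bars for the group means and the difference of the means in brackets. The gap between the groups was widest for sec22ba and ryr1b and narrowest for myl12.1, acbd5a, pcdh1g2, kcng1 and cntn2.

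The 6 cells outside the comparison did not divide by these genes. For 9 of the 12 genes that stood above, GABA-rich synchronized cell 4-1 also lay above every glutamate-rich non-synchronized cell, but for 7 of the 12 so did at least 3 of the 5 GABA-rich non-synchronized cells. kcng1 was the only one of the 12 for which no GABA-rich non-synchronized cell did so, with 0 to 1.03 CPM in them. Cell 4-1, however, had 0.401 CPM of kcng1. For the 3 genes that stood below, cell 4-1 was below the non-synchronized range for nono only, and at least 3 of the 5 GABA-rich non-synchronized cells were below it for all 3 genes. With all 10 synchronized and 10 non-synchronized cells in 1 comparison, 0 genes were without overlap in either direction.

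Of the 5-HT receptor genes, htr7a, which encodes a 5-HT7 receptor, set the groups most apart. htr7a was detected in 8 of the 9 synchronized cells (88.9%, exact 95% interval 51.8% to 99.7%) and in 0 of the 5 non-synchronized ones (0%, 0% to 52.2%), intervals that treat the cells as independent. Its level was 0 to 146 CPM (median 26.9) in synchronized cells, and every non-synchronized cell was at 0. By summed counts it was at least 209-fold higher in synchronized cells, taking 3 counts over the 5 non-synchronized cells as the limit that a count of 0 allows, which covers counting error only. The difference was 1.96 and stayed between 1.71 and 2.2 with any 1 cell left out. Cell 5 held no htr7a, and cells 20 and 4 had 0.929 and 2.51 CPM, so that 3 synchronized cells were at or near the level of the non-synchronized cells. Outside the comparison, synchronized cell 4-1 had 3.61 CPM and all 5 GABA-rich non-synchronized cells were at 0.

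Detection in nearly all synchronized and in no non-synchronized cells, the pattern of htr7a, was then counted over all measured genes. Among the 8913 measured genes, 5 were detected in 8 or 9 synchronized cells and not in any of the 5 non-synchronized cells, a count made after the values were seen. These were htr7a, kcna2b, xylt1, cacng7a and si:ch211-157b11.14. The only gene of the opposite kind, detected in all 5 non-synchronized and in at most 1 synchronized cell, was tac1.

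The other measured 5-HT receptors were less evenly spread over the synchronized cells. htr1aa, a receptor that couples to the inhibitory G protein, was detected in 4 of 9 synchronized cells (14-1, 20, 21 and 22) at 5.60 to 111 CPM and in 0 of 5 non-synchronized cells, with a difference of 1.01 that came to 0.69 with cell 14-1 left out. htr1d was 0 to 313 CPM (median 0.502) in synchronized cells against 1.59, 0, 0, 2.9 and 0 CPM in non-synchronized cells, a difference of 0.92. htr5ab was 0 to 101 CPM (median 1.32) in synchronized cells against 0, 0, 23.7, 0 and 0 CPM in non-synchronized cells, a difference of 0.40. Both groups were mostly near 0 for these receptors. htr7c, the second 5-HT7 receptor gene here, ran the other way, at 0 to 104 CPM (median 0) in synchronized cells and 35.9, 266, 0, 0 and 0 CPM in non-synchronized cells, a difference of -0.98 that rested on cells 15 and 10. In all, 2 of 5 measured receptors were higher (40%, against 15% of all measured genes) and 0 lower, and only htr7a was held. The other 11 found in the table were under 10 CPM on average. Both higher receptors, htr7a and htr1aa, were at 0 in every non-synchronized cell. They passed the limit of 10 CPM through the synchronized cells alone, so the share of 40% follows in part from that limit.

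Among the calcium-activated potassium channel genes, kcnn3 was higher in synchronized cells, and the BK channel gene kcnma1a was not past the limit. kcnn3, which encodes an SK channel, was 7.7 to 413 CPM (median 205) in synchronized cells against 62.3, 5.3, 17.4, 80.7 and 143 CPM in non-synchronized cells. Its mean was 217 ± 119.6 CPM over the 9 synchronized cells and 61.8 ± 55.2 CPM over the 5 non-synchronized cells (SD between cells), a difference of 1.74 (1.3 to 2.16 with any 1 cell left out). The groups overlapped through synchronized cell 6, at 7.70 CPM, and non-synchronized cell 19-1, at 143 CPM, and GABA-rich non-synchronized cell 18 had 389 CPM. The SK channel gene kcnn1a differed by 0.36 and kcnma1a, at 182 to 645 CPM (median 301) in synchronized and 75.7, 963, 207, 440.5 and 164 CPM in non-synchronized cells, by 0.20, both with wide overlap.

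Of 28 measured voltage-gated potassium channel genes, 8 were higher (28.6%, against 15% of all measured genes) and 2 lower (7.14%, against 8.8%). Their median difference was 0.41. kcnab2b, a cytoplasmic Kv1 beta subunit, was 0 to 680.2 CPM (median 175) in synchronized cells against 0, 0, 71, 63.7 and 1.13 CPM in non-synchronized cells, a difference of 2.62. kcna2b, a Kv1 alpha subunit, was 0 to 95.2 CPM (median 30.2) in synchronized cells and 0 in every non-synchronized cell, for a difference of 1.77. By summed counts it was at least 149.9-fold higher, a limit that covers counting error only. Synchronized cell 5 held none, and cells 22 and 6 had 0.628 and 5.39 CPM. kcna2b was not detected in the glutamate-rich non-synchronized cells, though it was present at 50.8 to 126 CPM in 3 of the 5 GABA-rich non-synchronized cells. dpp6b, an auxiliary subunit of Kv4 channels, differed by 1.68.

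Of 14 measured genes on the list of sodium channels and their partners, 4 were higher (28.6%, against 15% of all measured genes). In the same list 0 were lower (against 8.8%), with a median difference of 0.56. nalcn, which encodes the sodium leak channel that sets the resting potential, was 66.9 to 405 CPM (median 231) in synchronized cells against 3.5, 60.1, 12.6, 146 and 178 CPM in non-synchronized cells, a difference of 1.95. Cells 10, 15 and 17 were below every synchronized cell, and cells 10-1 and 19-1 lay among them. scn1ba, a sodium channel beta subunit, was 0 to 299 CPM (median 72.9) in synchronized cells against 21.3, 0, 0, 0.414 and 11.3 CPM in non-synchronized cells, a difference of 2.07, and fgf12a, which binds sodium channels, differed by 1.64. Of 25 measured calcium channel genes, 5 were higher (20%, against 15% of all measured genes) and 4 lower (16%, against 8.8%). cacna1ba, the pore subunit of N-type channels, differed by 1.89, and the beta subunit cacnb4a by 1.79.

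Of 22 measured genes for calcium stores, pumps and exchangers, 6 were higher (27.3%, against 15% of all measured genes) and 0 lower (against 8.8%). Their median difference was 0.44. Besides ryr1b, atp2a3, a pump that refills the endoplasmic reticulum, was 53.9 to 747 CPM (median 338) in synchronized cells against 10.8, 68.9, 105, 133 and 93.5 CPM in non-synchronized cells, a difference of 1.75. The pump gene atp2a2a differed by 1.43 and the second ryanodine receptor gene of this type, ryr1a, by 1.37. The 2 ryanodine receptor genes are close in sequence, and reads may be split between them. Of 37 measured calcium-binding protein genes, 1 was higher (2.7%, against 15% of all measured genes) and 7 lower (18.9%, against 8.8%). Their differences lay above 0 for 15 and below 0 for 22, and 3 lower genes were held. The median difference was -0.07, and 0.03 over all 20 cells. pvalb7, a parvalbumin, had the lowest difference of all genes named here, -3.57, and was detected in 2 of 9 synchronized cells, at 359 CPM in cell 4 and 7.41 CPM in cell 14-1, against 449, 197, 2398, 93.5 and 0 CPM in non-synchronized cells. hpcal1, a neuronal calcium sensor, was at most 1.26 CPM in synchronized cells against 58.2, 0, 63.1, 0 and 65 CPM in non-synchronized cells, a difference of -1.68. Outside the comparison, GABA-rich synchronized cell 4-1 had 202 CPM of hpcal1, and over all 20 cells the difference was -0.39.

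**Figure D3:**
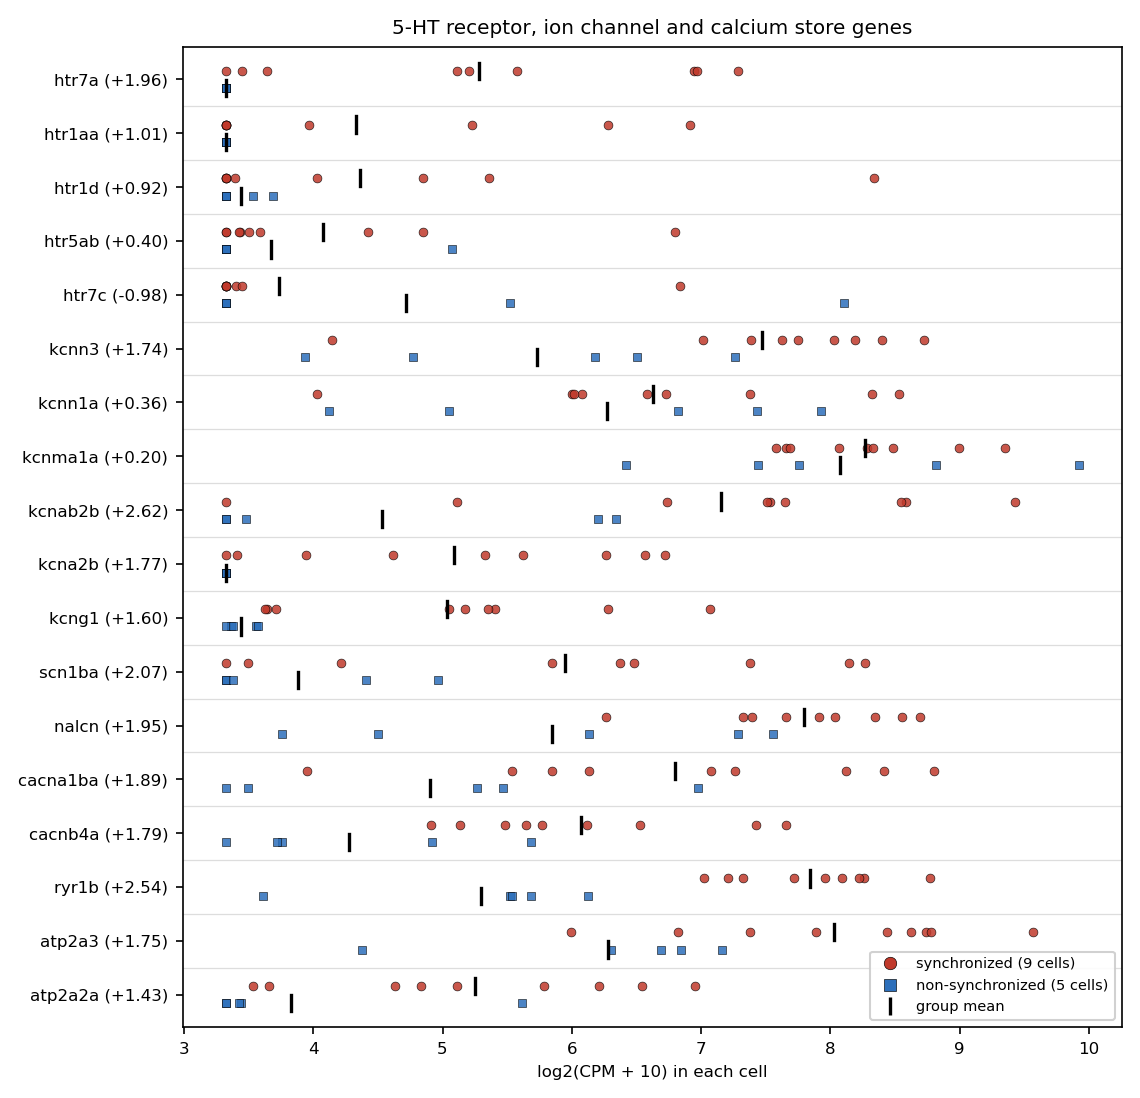
Levels of 5-HT receptor, ion channel and calcium store genes, as log2(CPM + 10) in each glutamate-rich cell, with circles for the 9 synchronized cells, squares for the 5 non-synchronized cells, vertical bars for the group means and the difference of the means in brackets. Every non-synchronized cell is at 0 CPM of htr7a and kcna2b, while kcnma1a and kcnn1a overlap throughout.

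The cAMP pathway, on which the 5-HT7 receptor acts, held genes of both directions, with a median difference of 0.48. Of 35 measured, 6 were higher (17.1%, against 15% of all measured genes) and 5 lower (14.3%, against 8.8%). pde7a, a phosphodiesterase, an enzyme that breaks down cAMP, was 36.2 to 574 CPM (median 142) in synchronized cells against 22.9, 0, 4.74, 144 and 3.76 CPM in non-synchronized cells, a difference of 2.50, with cell 10-1 alone of its group at the synchronized level. pde4bb, of the same enzyme class, was 0 to 114 CPM (median 25.1) in synchronized cells and was detected in non-synchronized cell 17 only, at 3.95 CPM, a difference of 1.74. adcy2b, an adenylyl cyclase, which makes cAMP, was lower, with at most 3.72 CPM in synchronized cells against 88.7, 54.8, 150.0, 0 and 84.9 CPM in non-synchronized cells, a difference of -2.56. pkib, an inhibitor of protein kinase A, was detected in synchronized cell 20 alone, at 14.4 CPM, against 148, 0, 8.68, 134 and 0 CPM in non-synchronized cells, a difference of -1.60.

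Of 32 measured G protein subunit and RGS genes, 6 were higher (18.8%, against 15% of all measured genes) and 5 lower (15.6%, against 8.8%). rgs9b, a GTPase-activating regulator, was 31.1 to 757 CPM (median 163) in synchronized cells against 96.7, 31.8, 4.74, 55.8 and 75.9 CPM in non-synchronized cells, a difference of 1.90. gnb5b, a beta subunit that binds RGS proteins of this family, was 0 to 25.1 CPM (median 0) in synchronized cells against 134, 0, 47.4, 103 and 110.4 CPM in non-synchronized cells, a difference of -2.11. rgs6, a regulator of the same family as rgs9b, differed by -2.09 and the gamma subunit gng2 by -1.72. Of 15 measured peptide receptor genes, 7 were higher (46.7%, against 15% of all measured genes) and 0 lower, but only 2 were held. Their median difference was 0.53. sstr1b, a somatostatin receptor, was 0 to 477 CPM (median 91.7) in synchronized cells and at most 0.789 CPM in non-synchronized cells, a difference of 2.82. ntrk2b, a receptor of the neurotrophin BDNF, was 26.7 to 316 CPM (median 103) in synchronized cells against 2.23, 43.3, 22.9, 56.2 and 36.8 CPM in non-synchronized cells, a difference of 1.64.

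Of 17 measured neuropeptide and granin genes, 4 were higher (23.5%, against 15% of all measured genes) and 2 lower (11.8%, against 8.8%). tac1, which encodes tachykinin peptides such as substance P, was detected in 1 of 9 synchronized cells (11.1%, exact 95% interval 0.281% to 48.2%), at 3.77 CPM, and in 5 of 5 non-synchronized cells (47.8% to 100%). These intervals treat the cells as independent, although the fish of each cell is not named, so they do not measure the spread between fish. Only cells 10 and 17, at 373 and 384 CPM, held it at a high level, and cells 10-1 and 19-1 were under 1 CPM. The difference was -2.40. The highest tac1 of the 20 cells, 2297 CPM, was in GABA-rich synchronized cell 4-1. cpe, an enzyme of peptide processing, was 617 to 1865 CPM (median 1170.4) in synchronized cells against 620.2, 299.6, 331, 600.1 and 319.6 CPM in non-synchronized cells, a difference of 1.34 that moved little with any 1 cell left out (1.23 to 1.48). chga, a granin of dense-core vesicles, was 380.0 to 3211 CPM (median 1130.1) in synchronized cells against 678, 400.3, 167, 839 and 23.3 CPM in non-synchronized cells, a difference of 1.77.

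Of 60 measured genes of vesicle release, 12 were higher (20%, against 15% of all measured genes) and 3 lower (5%, against 8.8%), with a median difference of 0.44. rims2a, an active zone scaffold, was 118 to 639 CPM (median 357) in synchronized cells against 148, 163, 0, 69.1 and 143 CPM in non-synchronized cells, a difference of 2.1, and its paralog rims1a differed by 2.18. The vesicle protein gene sypa differed by 1.97. cplx2, a complexin, which regulates the fusion of vesicles, was 0 to 253 CPM (median 0) in synchronized cells against 119, 401, 328, 33.5 and 22.5 CPM in non-synchronized cells, a difference of -2.04. Of 62 measured synaptic adhesion genes, 18 were higher (29%) and 9 lower (14.5%), against 15% and 8.8% of all measured genes. Only 5 higher and 2 lower of the 62 were held, where 7.01% and 2.83% of all measured genes were held. adgrl2a, a latrophilin, was 0 to 699 CPM (median 289.7) in synchronized cells against 0, 3.54, 0, 336 and 63.8 CPM in non-synchronized cells, a difference of 2.98. Cells 10, 15 and 17 were close to 0 and cell 10-1 was above the synchronized median of 290 CPM. The neurexin gene nrxn3b differed by 1.99.

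Of 21 measured AMPA, kainate and NMDA receptor genes, 3 were higher (14.3%, against 15% of all measured genes) and 1 lower (4.76%, against 8.8%). None of these was held. Of 8 measured metabotropic glutamate receptor genes, 1 was higher (12.5%, against 15% of all measured genes) and 2 were lower (25%, against 8.8%). grm5b, with 18.5 to 286 CPM (median 101) in synchronized cells against 1.59, 3.54, 3.95, 182 and 45.1 CPM in non-synchronized cells, differed by 1.79. Of 20 measured GABA and glycine receptor genes, 5 were higher (25%, against 15% of all measured genes) and 1 was lower (5%, against 8.8%). gphnb, which encodes the scaffold gephyrin of inhibitory synapses, differed by 1.54, the glycine receptor subunit glrbb by 1.70 and the GABA-B receptor subunit gabbr2 by 1.29. gabra4, a subunit of GABA-A receptors, was at most 18.8 CPM in synchronized cells against 2.86, 329.6, 250.2, 0 and 0 CPM in non-synchronized cells, a difference of -1.80.

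Single genes of axon guidance and cell contact had some of the larger differences. efna1b, an ephrin, was 62.1 to 878 CPM (median 312) in synchronized cells against 110.4, 1.77, 18.2, 331 and 1.13 CPM in non-synchronized cells, a difference of 2.86. Of 18 measured ephrin and Eph receptor genes, 5 were higher (27.8%, against 15% of all measured genes) and 1 lower (5.56%, against 8.8%). fat1b, an atypical cadherin, was 22.6 to 460.2 CPM (median 141) in synchronized cells against 0.636, 4.42, 0, 132 and 19.2 CPM in non-synchronized cells, a difference of 2.45. Of 57 measured cadherin and protocadherin genes, 8 were higher (14%, against 15% of all measured genes) and 5 lower (8.77%, against 8.8%). plxna4, a semaphorin receptor, was 0 to 232 CPM (median 2.32) in synchronized cells against 243, 359, 381, 110.0 and 0.751 CPM in non-synchronized cells, a difference of -2.37. robo3, a receptor of the Slit pathway, differed by -1.91 and nrp2b, a neuropilin, by 1.75. Of 32 measured semaphorin, plexin, Slit and Robo genes, 5 were higher (15.6%, against 15% of all measured genes) and 7 lower (21.9%, against 8.8%).

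Of 31 measured pallial transcription factor genes, 6 were higher (19.4%, against 15% of all measured genes) and 8 lower (25.8%, against 8.8%), and 1 higher and 5 lower genes of these were held. As a list they were not shifted down, with 17 differences above 0, 14 below 0 and a median of 0.12, against 0.19 over all measured genes. The genes described next were the held ones with the largest differences, and all of these were lower. lmo3, a LIM-only cofactor, was 0 to 178 CPM (median 32.1) in synchronized cells against 439, 1041, 457, 11.2 and 66.5 CPM in non-synchronized cells, a difference of -2.58. mef2cb, a MADS-box factor of neuron maturation, was 0 to 17.1 CPM (median 1.88) in synchronized cells against 383, 438, 42.6, 3.31 and 1.13 CPM in non-synchronized cells, a difference of -2.24. For both, cells 10 and 15 were far above all synchronized cells and cell 10-1 lay among them. id2a, an inhibitor of bHLH factors, differed by -2.02. bcl11ba, a zinc finger factor that in mammals marks neurons with subcerebral axons, was 0 to 89 CPM (median 0) in synchronized cells against 582, 3.54, 402, 1.65 and 1.13 CPM in non-synchronized cells, a difference of -1.91. It rested on cells 10 and 17, the 2 non-synchronized cells with under 100 CPM of transporter transcripts, and came to 0.23 when at least 100 CPM were required.

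Of 20 measured genes of newly formed neurons and progenitors, 1 was higher (5%, against 15% of all measured genes) and 5 were lower (25%, against 8.8%). Their median difference was -0.24. gap43, a protein of growth cones, was 143 to 1793 CPM (median 665) in synchronized cells against 1697, 855, 3093, 2849 and 2491 CPM in non-synchronized cells, a difference of -1.66, and stmn1b, a stathmin that binds tubulin, differed by -1.42. ebf3a (ENSDARG00000100244, a name that another gene of the table shares), a helix-loop-helix factor, was at 0 in all 9 synchronized cells against 10.5, 353, 1195, 0.414 and 0 CPM in non-synchronized cells, so that only cells 15 and 17 held it at a high level. Of 28 measured pan-neuronal genes, 4 were higher (14.3%, against 15% of all measured genes) and 8 lower (28.6%, against 8.8%). rbfox1, a splicing factor of neurons, was 0 to 524 CPM (median 64.1) in synchronized cells against 1027, 465, 587, 56.7 and 155 CPM in non-synchronized cells, a difference of -2.16, and rbfox3a, known as the NeuN antigen, differed by -2.25. stmn2b, a second stathmin, differed by -1.92, whereas atp1a3b, the neuronal sodium pump subunit, was higher by 2.66.

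Immediate-early genes, which neurons switch on after strong activity, did not move together. Of 42 measured, 5 were higher (11.9%, against 15% of all measured genes) and 7 lower (16.7%, against 8.8%). Their median difference was -0.24. nr4a3 was 1.29 to 429.7 CPM (median 70.8) in synchronized cells against 0, 1.77, 0.789, 19.4 and 11.3 CPM in non-synchronized cells, a difference of 2.14, and was at least 70.8 CPM in 5 of 9 synchronized cells and at most 14.8 CPM in the other 4. per1b, a clock gene that also responds to stimulation, was 33.6 to 540.0 CPM (median 139) in synchronized cells against 3.18, 1.77, 3.95, 78.2 and 19.5 CPM in non-synchronized cells, a difference of 2.41. jun was 0 to 126 CPM (median 1.26) in synchronized cells against 299.6, 0, 56.8, 351 and 0 CPM in non-synchronized cells, a difference of -1.65. The time between CAS and the collection of each cell is not given in the labels.

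Among genes of energy supply, hk1, the hexokinase that starts glycolysis in the brain, was 131 to 451 CPM (median 289) in synchronized cells against 7.32, 0, 81.3, 165 and 142 CPM in non-synchronized cells, a difference of 2.46. The glucose transporter slc2a3a differed by 2.05, with the highest value, 1968 CPM, in synchronized cell 5. As a list of 23, glycolysis and transport genes had 3 higher (13%) and 2 lower (8.7%), against 15% and 8.8% of all measured genes. Their median difference was 0.01. Of 90 measured nuclear genes of the respiratory chain, 6 were higher (6.67%, against 15% of all measured genes) and 7 lower (7.78%, against 8.8%). Of 13 mitochondrial genome genes, 0 were past the limit in either direction. Of 80 measured cytosolic ribosomal protein genes, 1 was higher (1.25%, against 15% of all measured genes) and 6 lower (7.5%, against 8.8%). They had the lowest median difference of the lists drawn, -0.33. hspa9, the mitochondrial chaperone, was 67.9 to 1391 CPM (median 650.1) in synchronized cells against 439, 0, 249, 177 and 214 CPM in non-synchronized cells, a difference of 2.17.

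**Figure D4:**
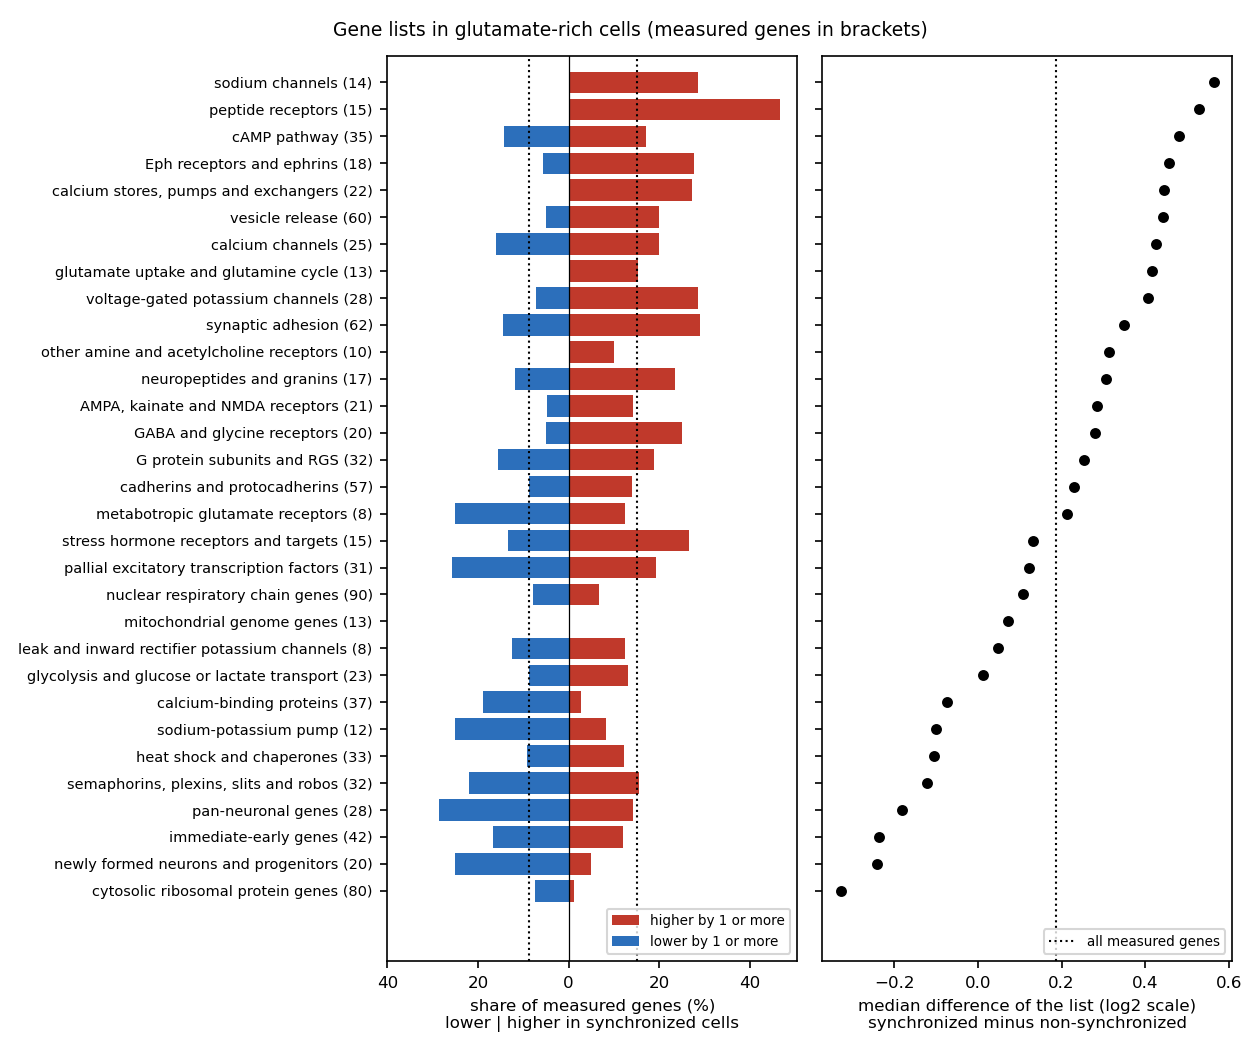
Gene lists with at least 8 measured genes, ordered by their median difference, with the share of measured genes higher (right, red) or lower (left, blue) by 1 or more in synchronized cells in the left panel and the median difference in the right panel. Dotted lines mark the same values over all 8913 measured genes (15%, 8.8% and 0.19). Peptide receptors had the largest share of higher genes, 7 of 15, of which 2 were held with any 1 cell left out.

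Many of the differences rested on a part of the non-synchronized cells. Cells 10, 15 and 17 held pvalb7, lmo3, plxna4 and adcy2b at levels of at least 54.8 CPM. Cells 10-1 and 19-1 held less pvalb7, lmo3 and plxna4 than each of them, but for adcy2b cell 19-1, at 84.9 CPM, was above cell 15, at 54.8 CPM. On the other side, cells 10-1 and 19-1 held nrp2b at 497 and 387 CPM and gphnb at 666 and 287 CPM, within the synchronized range of both genes, while cells 10, 15 and 17 held at most 0.884 CPM of nrp2b and 67.1 CPM of gphnb. The 5 cells were therefore not alike, and with so few of them each one moves a group mean. Cells 10-1 and 19-1 are also the only ones of these 5 whose label carries a suffix. Synchronized cells 14-1 and 4-1 carry a suffix as well. Cell 14-1 held 7.41, 178, 232 and 0 CPM of pvalb7, lmo3, plxna4 and adcy2b. Cell 4-1 held 0, 1.6, 208 and 34.9 CPM of the same genes. The deposited counts name cells 10-1 and 19-1 no-syn and the other non-synchronized cells non_syn. What the suffix stands for is not given, so a difference between cells and one in labelling or handling cannot be told apart. Of the 784 genes lower in synchronized cells, 247 to 339 were above every synchronized cell in a given non-synchronized cell, most often in cell 10. Of the 1337 genes higher in synchronized cells, 733 (54.8%) were at 0 in cell 15, against 296 to 441 in the other 4 cells, and leaving out cell 15 changed the counts to 1293 higher and 1154 lower genes.

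**Figure D5:**
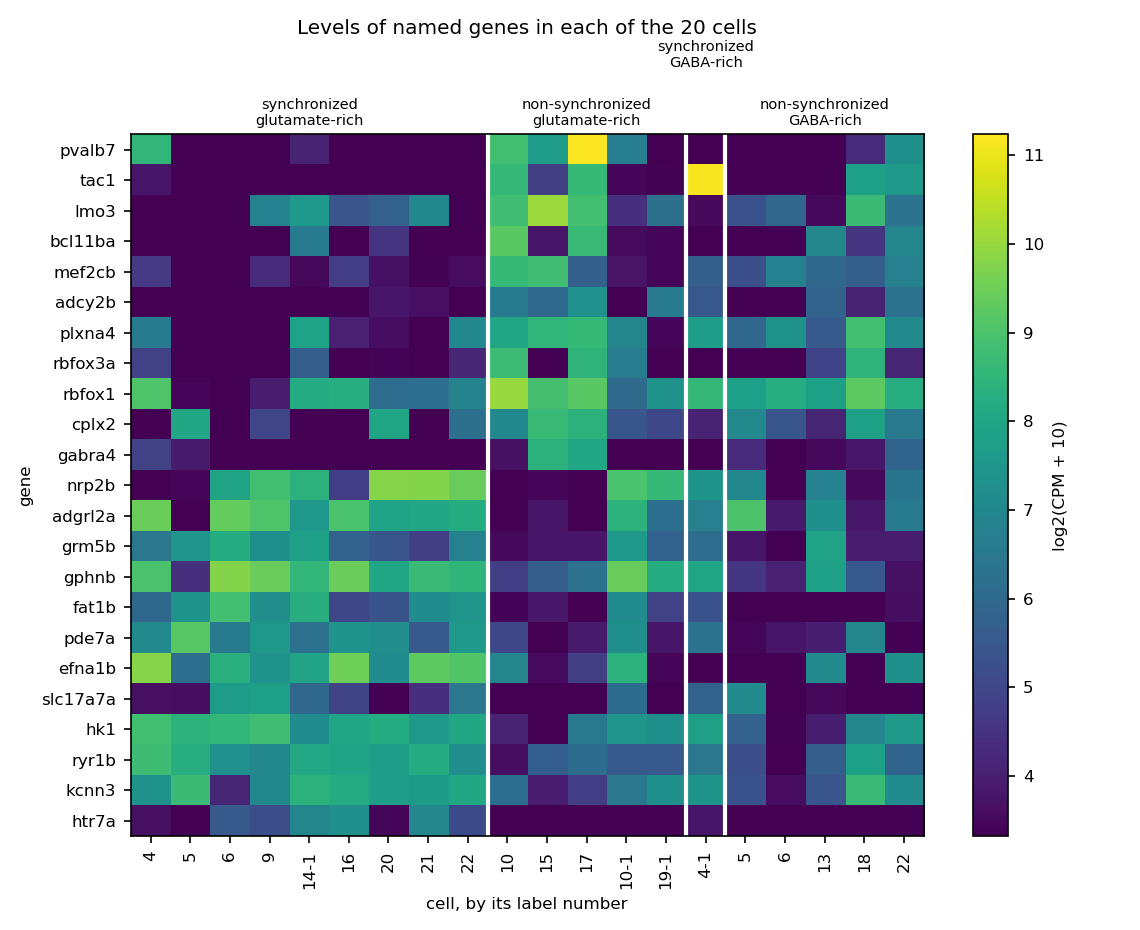
Level of genes named in the text (rows) in each of the 20 cells (columns, by label number), as log2(CPM + 10) in colour, with white lines between glutamate-rich synchronized cells, glutamate-rich non-synchronized cells, GABA-rich synchronized cell 4-1 and GABA-rich non-synchronized cells. Non-synchronized cells 10, 15 and 17 differ from 10-1 and 19-1 in pvalb7, lmo3, plxna4, nrp2b and gphnb, and htr7a is at 0 in all 10 non-synchronized cells.

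The comparison over all 10 synchronized and 10 non-synchronized cells, which shares these 14 cells, gave other values for several of the genes. For htr7a the difference was 1.96 within glutamate-rich cells and 1.81 over all 20 cells, and for kcnn3 it was 1.74 and 1.59. ryr1b had 2.54 within glutamate-rich cells and 2.27 over all cells, and pde7a 2.50 and 2.60. With and without the choice of class these genes differed by much the same size, but with 14 of the 20 cells shared such likeness is partly built in. For gad2, which the choice used, the values were -0.50 and -3.24. kcna2b had 1.77 and 0.69, and fgf12a 1.64 and 0.41. Of the GABA-rich non-synchronized cells, 13, 18 and 22 held both genes. usp2a and sec22ba, at 3.84 and 3.69 within glutamate-rich cells, had 2.35 and 2.16 over all cells, and the GABA-rich non-synchronized cells held usp2a at 31 to 389 CPM.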

How the data were processed

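The authors deposited raw read counts per gene for 18820 genes in all 20 libraries, from untrimmed 75 bp paired-end reads. The paper's methods name a TruSeq stranded mRNA kit, while its drawing of the experiment names Smart-seq2. By the submitters' processing notes, the genome was danRer11 and edgeR 3.14.0 was used. The aligner was not given in the sources used here, nor was the read counter. Of the genes, 58 have no name, 515 share a name with another gene, and 95.2% of the gene IDs are in the reference gene names. No reference sequence of this build was used, so none is printed.

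The deposited counts were turned into CPM by the sum of each library. A gene was measured if it averaged 10 CPM or more over the 14 cells, and the pseudocount on the log2 scale was 10 CPM. No test was made, since the fish of each cell is not named and the groups then count as 1 sample each. Intervals for shares of cells are exact (Clopper-Pearson, 95%) and treat the cells as independent, and the limit for a count of 0 was 3 counts. Non-synchronized 10 and 10-1 share a label number. The chi-square of their counts over its degrees of freedom was 193. The 45 other pairs of the same group had 79.6 to 276, so both cells were kept.

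The members, the 44 gene lists and the rules were chosen with earlier results of these data known. Named genes were the 6 class genes, the measured 5-HT receptor genes and those of a list of SK, BK and related channels, up to 4 held genes per list with the largest difference, and all 15 genes without overlap, 108 in all, of which some are given and some are not reported here. Depth limits the low values. At the lowest total, 795838 counts, 1 read is 1.26 CPM. The calculation was run on simulated counts with known changes, as a check of the direction of the differences. No rate of false calls is reported here. Alternatives were TMM and poscounts scaling, another pseudocount, other filters, medians, summed counts, totals without mitochondrial genes, thinning, other class rules and leaving cells out. The software was R 4.3.3 with edgeR 4.0.16 and DESeq2 1.42.0, both for scaling factors alone, and Python 3.11.15 with pandas 2.3.3, numpy 2.4.6, matplotlib 3.10.9 and scipy 1.17.1.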

Additional observations from a re-analysis of the deposited data

Results flagged for a closer look

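Within the groups of 9 synchronized and 5 non-synchronized cells, 45 sets of values were looked at for a single cell far from the others, by the gap to the nearest cell as a share of the group's range. In 18 sets 1 cell stood apart. The limits used assume normal values, whereas CPM are skewed and often 0, so no rate by chance is given. Most sets were of genes already chosen because their groups did not overlap. Of the library measures, non-synchronized cell 15 had 5588 genes detected, against 8256 in the next cell, and non-synchronized cell 17 had 13.7% mitochondrial counts, against 4.84% in the next. The GABA gene sum was 13 CPM in synchronized cell 20 and 59.2 CPM in non-synchronized cell 17. Microglia and leukocyte genes summed to 383 CPM in synchronized cell 14-1 and 1845 CPM in non-synchronized cell 19-1, and red blood cell genes to 11613 CPM in synchronized cell 5.

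Among genes that were higher in synchronized cells, 1 synchronized cell was far above the rest for usp2a (cell 21, 1329 CPM), cyfip2 (cell 9, 907 CPM), cntn2 (cell 5, 296 CPM) and mybbp1a (cell 14-1, 265 CPM). For ier5l, which was lower, this held for synchronized cell 16 at 34.6 CPM and for non-synchronized cell 17 at 152 CPM. One non-synchronized cell stood above the other 4 for usp2a (cell 10, 119 CPM). In the remaining sets 4 of 5 non-synchronized cells were at 0, and the cell that stood apart held 0.751 CPM of mybbp1a (19-1), 0.414 CPM of pcdh1g2 (10-1), 0.376 CPM of sec22ba (19-1) and 0.376 CPM of ttbk2b (19-1), which are 1 or 2 reads.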

How the results depend on the processing

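No paired analysis was possible because no label number occurs in both groups of the 14 cells. Each result was computed again under 31 alternatives, of which 14 left out 1 cell and 3 were chosen after seeing the data. The count of higher genes, 1337, stayed within 1.5 times under all but log2(CPM + 1), which gave 2977. That of lower genes, 784, moved to 1437 with log2(CPM + 1), 1187 with group medians, 1345 with summed counts and 410 with all 10 and 10 cells. With 1 cell left out, higher genes numbered 1293 to 1666, lower genes 718 to 1154, genes with every synchronized cell above 16 to 38 (38 without cell 10-1) and genes with every synchronized cell below 3 to 22 (22 without cell 15). The 12 genes that stood above and the 3 that stood below without overlap became 19 and 9 with cells 10 and 10-1 averaged, 47 and 13 without synchronized 5 and non-synchronized 19-1, 66 and 32 with a transporter sum of at least 100 CPM, 29 and 9 with a transporter sum at least 10 times the GABA sum, and 0 and 0 with all 10 and 10 cells. They became 34 and 26 without the cell with the fewest genes of each group, and 41 and 13 without the cell with the highest mitochondrial share of each group. Groups with fewer cells separate by construction more often. The 3 genes below became 1 with libraries thinned to the lowest total and 1 with synchronized cell 4-1 added.

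Of the 108 named genes, 99 differed by at least 1 in size, and 1 of these reversed. bcl11ba came to 0.23 with a transporter sum of at least 100 CPM, which left out cells 10 and 17. Most named genes were chosen because they were held with any 1 cell left out, and 14 of the 31 alternatives left out 1 cell. The low count of reversals was therefore largely set by this choice. The median of microglia and leukocyte genes, -0.67, came to 0.51 without synchronized 5 and non-synchronized 19-1 and lay between -0.98 and 0.59 with 1 cell left out, positive without non-synchronized 19-1, and that of other GABA genes, 0.57, came to -0.32 with all 10 and 10 cells. Over all measured genes the median was 0.12 with TMM, 0.09 with poscounts and 0.40 with log2(CPM + 1). Of the 1337 higher and 784 lower genes, 1271 and 734 were also called with libraries thinned to the lowest total, and 721 and 245 with all 10 and 10 cells.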

Other observations

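The genes in the next paragraphs were chosen after their values were seen. pyya, which encodes a peptide of the neuropeptide Y family, was present in part of the synchronized cells only. It was 3369.5 CPM in synchronized cell 21, 2503 CPM in cell 16, 349 CPM in cell 6, 296 CPM in cell 9 and 1.71 CPM in cell 14-1, and 0 in the other 4 synchronized cells, against 0 in all 5 glutamate-rich non-synchronized cells (difference 2.97). ccn2a, a secreted matricellular protein, was detected in the same 5 synchronized cells, at 1686 CPM in cell 21, 1259 CPM in cell 16, 161 CPM in cell 14-1, 85.4 CPM in cell 6 and 63.9 CPM in cell 9, and in 1 of 5 non-synchronized cells, at 4.13 CPM (difference 2.64). Outside the comparison, non-synchronized cell 13, which is GABA-rich, had 288 CPM of pyya. The synchronized cells thus differed among themselves in these genes.

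tshz1, a zinc finger factor, and rprml, a reprimo-like gene, were high in the same 3 of the 5 glutamate-rich non-synchronized cells, those without a label suffix. tshz1 was detected in 1 of 9 synchronized cells, at 3.1 CPM, against 409.6, 304, 457, 0 and 0 CPM in non-synchronized cells 10, 15, 17, 10-1 and 19-1 (difference -3.14). rprml was 250.1 CPM in synchronized cell 4 and 0 in the other 8, against 534, 808, 533, 1.65 and 0 CPM in these non-synchronized cells (difference -3.10). olfm1a, a secreted olfactomedin of neurons, had the opposite order among them, with 171 to 2134 CPM in synchronized cells (median 1177) against 66.8, 7.95, 1.58, 1502 and 734 CPM (difference 2.89). tspan2a, a tetraspanin, was 52.1 to 791 CPM in synchronized cells (median 290.3) against 9.22, 3.54, 0.789, 350.3 and 135 CPM in the same non-synchronized cells (difference 2.83). Cells 10-1 and 19-1 thus lay within the synchronized range of both genes. Outside the comparison, synchronized cell 4-1, whose label has a suffix, had 164 CPM of tshz1 and 405 CPM of rprml. The GABA-rich non-synchronized cells 5, 6, 13, 18 and 22 had 116, 1.2, 0, 431 and 77.8 CPM of tshz1. Their rprml was 0, 0, 88.1, 706 and 150 CPM.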
